A study of Homo sapiens with 6 samples.

Results

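MicroRNA host genes are transcription units, named after the microRNA they carry, whose RNA is the source of 1 or more microRNA hairpins. They were taken as the rows of the gene table whose symbol starts with MIR and ends with HG. This gave 62 genes of 58735 rows, of which 20 had at least 10 counts in 3 or more libraries and are described gene by gene. RNA came from ACHN cells, an established human renal cancer line, transfected with siRNA, a short double-stranded RNA that lowers a chosen transcript, against the deubiquitinase gene OTUD1 (3 libraries), or with a control siRNA (3 libraries). No other genotype or treatment separates the groups in the labels, which carry a single siRNA name (si01) for the knockdown and do not tell whether separate cultures were used for them. The p-values thus rest on the spread of these samples alone, and that spread may be technical. In bulk RNA, fewer cells with a transcript and less of it per cell cannot be told apart.

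A microRNA starts as part of a long primary transcript. The nuclear enzyme DROSHA and its partner DGCR8 cut out a hairpin, XPO5 exports it, DICER1 trims it, and an Argonaute protein holds 1 strand as the guide that pairs with messenger RNAs, chiefly through bases 2 to 8, the seed. Some hosts are long non-coding RNAs with functions studied apart from the microRNA, and in others the spliced RNA is mainly the remainder of hairpin processing. The level of a host in a library of long RNA is that of the long transcript present, and the mature microRNA was not measured in these libraries.

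The microRNAs below are those on which the results turn. They are the best-known product of each host whose level passed the test, and the let-7 pair that shares a seed with one of them. Sequences and positions are from RefSeq (GRCh38.p14), each is written 5′ to 3′, and capitals mark the seed.
hsa-miR-137-3p (MIR137HG, chr1:98046091-98046113, minus strand): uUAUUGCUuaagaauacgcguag
hsa-miR-4453 (MIR4453HG, chr4:152536432-152536451, plus strand): gAGCUUGGucuguagcgguu
hsa-miR-34a-5p (MIR34AHG, chr1:9151735-9151756, minus strand): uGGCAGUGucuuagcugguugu
hsa-miR-646 (MIR646HG, chr20:60308534-60308552, plus strand): aAGCAGCUgccucugaggc
hsa-miR-4458 (MIR4458HG, chr5:8460933-8460951, plus strand): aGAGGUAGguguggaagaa
hsa-let-7a-5p (MIRLET7BHG, chr22:46112752-46112773, plus strand): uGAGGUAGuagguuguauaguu
hsa-let-7b-5p (MIRLET7BHG, chr22:46113691-46113712, plus strand): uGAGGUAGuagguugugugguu
hsa-miR-155-5p (MIR155HG, chr21:25573983-25574006, plus strand): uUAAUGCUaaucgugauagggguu
hsa-miR-146a-5p (MIR3142HG, chr5:160485372-160485393, plus strand): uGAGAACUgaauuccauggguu
In these lines miR-4458 shares its whole seed, GAGGUAG, with let-7a and let-7b, while miR-137, miR-4453, miR-34a, miR-646, miR-155 and miR-146a each have a seed of their own.

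The control libraries held 16753495 to 18993534 counts each, the OTUD1 siRNA libraries 17243433 to 21013530. Levels are given as CPM, the count scaled to a common library size with TMM factors, for replicates 1, 2 and 3 in that order. A positive fold change means a higher level after OTUD1 siRNA. A gene was called where the adjusted p of edgeR's quasi-likelihood test was under 0.05. OTUD1 itself was at 3.82, 3.69 and 3.8 CPM in the control libraries and 1.28, 0.844 and 1.39 CPM in the OTUD1 siRNA libraries (edgeR log2 fold change -1.69 with SE 0.24, adjusted p = 4.37e-07), so the groups did not overlap. The renal epithelial markers PAX8, KRT8, KRT18, CA12 and EPCAM had counts in every library. The 6 epithelial markers summed to 6280 to 6480 CPM in the control libraries and 3090 to 3200 CPM in the OTUD1 siRNA libraries. The 8 markers of blood, endothelial, fibroblast and liver cells summed to 4.35 to 6.83 and 5.56 to 7.33 CPM, mostly COL1A1, with PTPRC and CD3E at 0 counts. KRT8, KRT18 and PAX8 make up most of the epithelial sum, which was lower after OTUD1 siRNA. EPCAM went the other way, from 41.6 to 44.5 CPM in the control libraries to 46.3 to 49.5 CPM after OTUD1 siRNA. CDH16 was at 0.409 to 0.688 and 0.444 to 0.645 CPM, overlapping ranges. The part of the epithelial markers' difference in the results below was not tested.

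Of the 62 host genes, 19 had enough counts to be tested, 5 of which rose and 2 fell. MIR137HG rose most, 2.43-fold, followed by MIR4453HG (1.74-fold), MIR646HG (1.47-fold), MIR4458HG (1.42-fold) and MIR34AHG (1.38-fold). MIR155HG, the host of the inflammatory microRNA miR-155, fell 2.05-fold, and MIR3142HG, the host of miR-146a, fell 1.36-fold. The hosts of several of the most studied microRNAs, among them MIR22HG, MIR17HG, MIR222HG, MIR210HG and MIRLET7BHG, did not pass.

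Over all 15244 genes tested, 29.3% were called higher and 31.1% lower (4460 and 4746 genes, but 6189 and 3456 when scaled by library totals and 5643 and 3793 with upper-quartile scaling). The host genes' shares were 26.3% higher and 10.5% lower, and their median log2 fold change was 0.06 beside 0.01 over all genes. With library totals or upper-quartile scaling 8 host genes were higher and 2 lower, and with quantile normalization 3 were higher and 4 lower. Low-count genes set a different background: of the 4207 genes with a mean under 5 CPM, 26.8% were higher and 10.5% lower, with a median of 0.23. Of the 14 host genes in that range, 3 were higher and 1 lower, with a median of 0.03. The 550 long intergenic non-coding RNA genes tested, the annotation class to which 14 of the 20 described hosts belong, were higher in 47.6% and lower in 5.64%, with a median of 0.55. The groups did not overlap for 9 of the 19 host genes, beside 64.5% of all genes tested. Under 5 CPM they did not overlap for 6 of the 14 host genes and for 1873 of the 4207 genes.

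**Figure D1:**
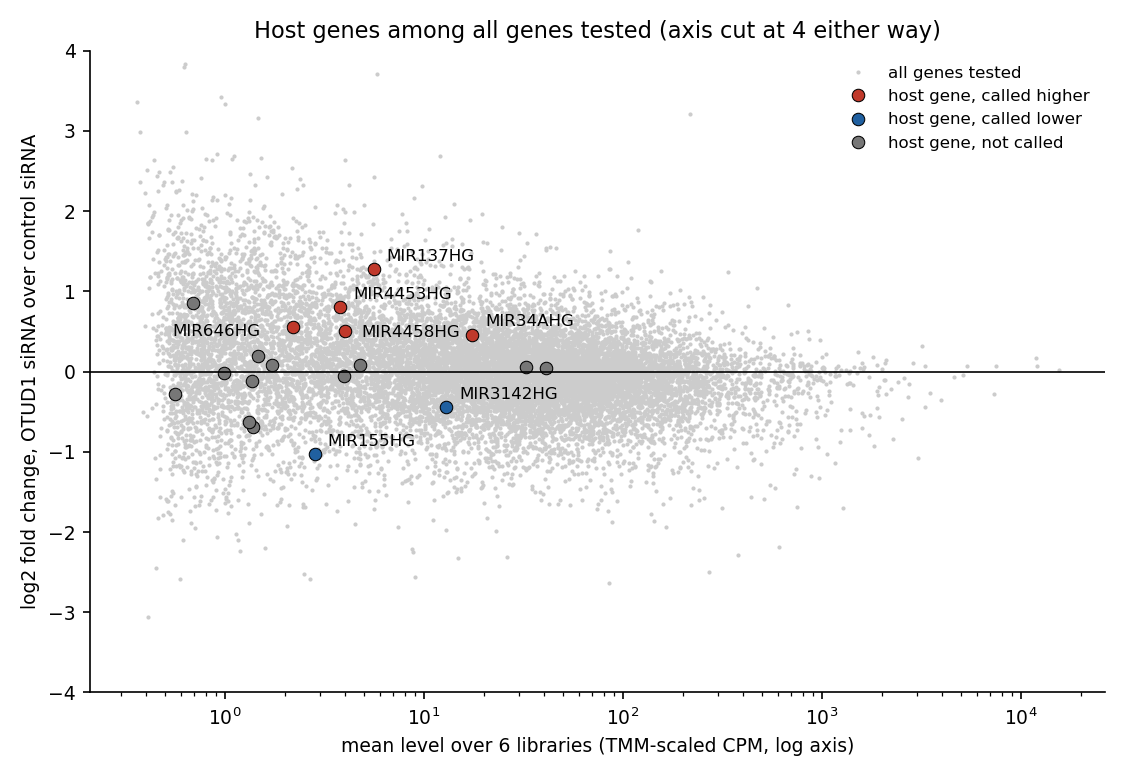
Log2 fold change of every gene tested against its mean level over the 6 libraries (log axis), with the 19 host genes as large points coloured by call. The host genes lie within the cloud of other genes, between -1.03 and 1.28; 2 genes with a log2 fold change beyond 4 either way are not drawn.

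**Figure D2:**
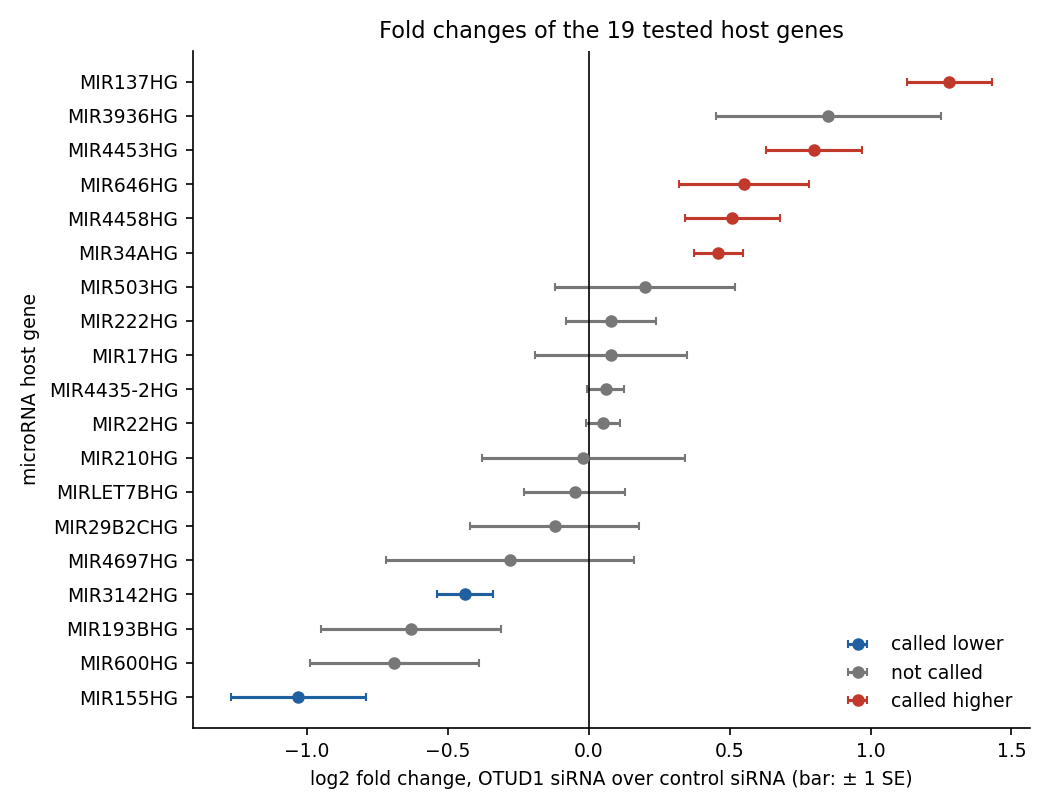
Log2 fold change of each tested host gene (point) with 1 standard error either way (bar). MIR137HG, MIR4453HG, MIR646HG, MIR4458HG and MIR34AHG were called higher, MIR3142HG and MIR155HG lower, and the bars widen for hosts with few counts.

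MIR137HG (ENSG00000225206.9, chromosome 1, 97933474 to 98049863, minus strand, 11 exon blocks) carries miR-137, a microRNA best known from neurons, and miR-2682. It was at 3.25, 3.14 and 3.45 CPM in the control libraries and 8.34, 8.29 and 7.22 CPM in the OTUD1 siRNA libraries. All OTUD1 siRNA libraries stood clear of all control libraries (edgeR log2 fold change 1.28 with SE 0.15, adjusted p = 1.18e-08). MIR137HG overlaps the start of DPYD, the gene of the first enzyme of pyrimidine breakdown, on the same strand, and the pair share 494 bases of exon. DPYD was called higher as well, from 50.9 ± 1.27 to 66.7 ± 1.22 CPM (SD, n = 3; edgeR log2 fold change 0.39 with SE 0.05, adjusted p = 1.03e-07). Per kilobase of annotated exon, mean levels over the 6 libraries were 0.783 CPM for MIR137HG and 8.25 CPM for DPYD. The sources used here do not state how reads in the shared bases were assigned, and their part in the rise of MIR137HG was not tested.

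MIR34AHG (ENSG00000228526.7, chromosome 1, 9148011 to 9198906, minus strand) is the primary transcript of miR-34a, known for repressing cell-cycle genes. Its levels were 14.6, 14.1 and 15.5 CPM in the control libraries and 21.9, 19.2 and 19.8 CPM after OTUD1 siRNA, with no overlap. The log2 fold change by edgeR was 0.46 (SE 0.087, adjusted p = 4.09e-05). The opposite-strand gene LNCTAM34A, which lies inside its span and shares 431 bases of exon with it, averaged 0.761 CPM with control siRNA and 1.3 CPM with OTUD1 siRNA and missed the threshold (log2 fold change 0.77, edgeR adjusted p = 0.0556). LNCTAM34A had 117 counts over the 6 libraries and MIR34AHG 1980. The part of reads in the shared bases in the rise of MIR34AHG was not tested.

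MIR4453HG (ENSG00000268471.6, chromosome 4, 152536264 to 152539263, plus strand, 1 exon of 3000 bases) starts 201 bases from FBXW7, which encodes the substrate receptor of an SCF ubiquitin ligase and runs the other way. MIR4453HG was at 2.75, 2.97 and 2.63 CPM in the control libraries and 5.33, 4.72 and 4.44 CPM after OTUD1 siRNA. The groups were well apart, with a log2 fold change by edgeR of 0.8 (SE 0.17, adjusted p = 0.000254). FBXW7 was at 22.6, 24.6 and 20.6 CPM and at 25.5, 24.1 and 26.1 CPM, so its groups overlapped and it was not called (log2 fold change 0.16, edgeR adjusted p = 0.0795). The difference between the fold changes of the 2 genes was not tested.

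MIR4458HG and MIR646HG were called with less margin. MIR4458HG (ENSG00000247516.6, chromosome 5, 8450743 to 8463095, plus strand) was at 3.25, 2.97 and 3.68 CPM in the control libraries and 5.15, 4.02 and 4.89 CPM in the OTUD1 siRNA libraries (edgeR log2 fold change 0.51 with SE 0.17, adjusted p = 0.0129). Its call was lost without control siRNA replicate 2 (log2 fold change 0.44, edgeR adjusted p = 0.0519), without OTUD1 siRNA replicate 1 (0.43, adjusted p = 0.0727) and after quantile normalization (0.32, limma adjusted p = 0.106). MIR646HG (ENSG00000228340.5, chromosome 20, 60087840 to 60527458, plus strand) spans 439619 bases with 23 exon blocks. It was at 1.5, 2.15 and 1.69 CPM and then at 2.46, 2.98 and 2.44 CPM (edgeR log2 fold change 0.55 with SE 0.23, adjusted p = 0.043). MIR646HG lost its call in 9 of the 14 alternatives that tested it, and over all 14 its adjusted p ran from 0.0129 to 0.207. Those 9 included leaving out any single library other than control siRNA replicate 2, and its log2 fold change without 1 library lay between 0.45 and 0.72. The opposite-strand genes that overlap MIR4458HG or MIR646HG had at most 12 counts over the 6 libraries.

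The steepest fall was in MIR155HG, and MIR3142HG was the other host that fell. MIR155HG (ENSG00000234883.5, chromosome 21, 25561909 to 25575168, plus strand), first described as the gene BIC, gives rise to miR-155, which is abundant in activated immune cells. It was at 3.5, 3.74 and 4.2 CPM in the control libraries and 1.41, 2.83 and 1.33 CPM after OTUD1 siRNA. Replicate 2 lay well above the other OTUD1 siRNA libraries, yet the groups did not overlap. The log2 fold change by edgeR was -1.03 (SE 0.24, adjusted p = 0.000481), and it was -1.47 without OTUD1 siRNA replicate 2. No annotated gene other than its microRNA overlaps it.

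MIR3142HG (ENSG00000253522.6, chromosome 5, 160438594 to 160487426, plus strand) carries miR-3142 and, near its end, miR-146a, known for dampening signalling below Toll-like and interleukin-1 receptors. Levels were 13.2, 16.3 and 15.4 CPM in the control libraries and 11.1, 11.9 and 10.1 CPM in the OTUD1 siRNA libraries. All OTUD1 siRNA libraries were below all control libraries (edgeR log2 fold change -0.44 with SE 0.1, adjusted p = 0.000565). Its nearest upstream coding gene on the same strand, PTTG1, which encodes securin of the chromosome separation machinery and ends 9850 bases away, fell too (edgeR log2 fold change -0.8 with SE 0.048, adjusted p = 1.36e-14).

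**Figure D3:**
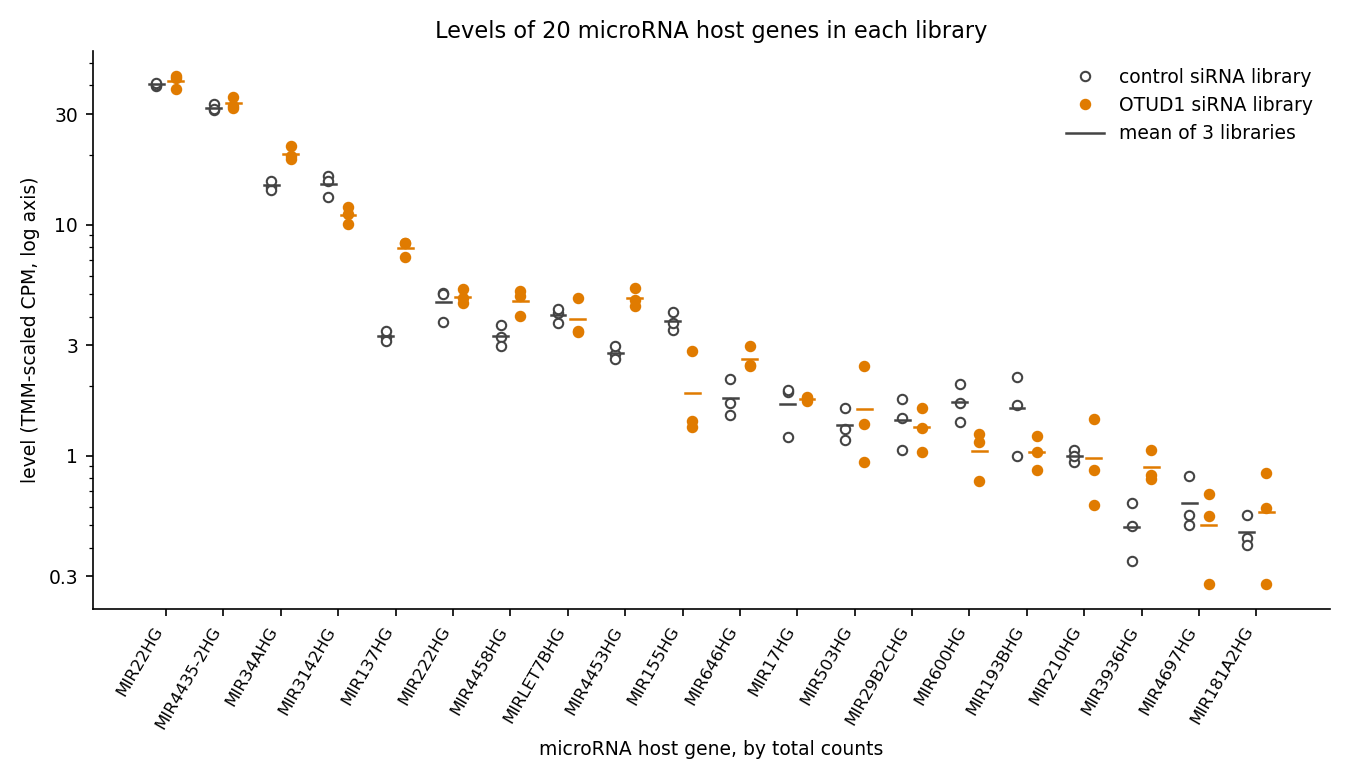
Level of each of the 20 host genes in each library, as TMM-scaled CPM on a log axis; open points are control siRNA libraries, filled points OTUD1 siRNA libraries, and lines the mean of 3. MIR137HG separates most clearly (3.14 to 3.45 against 7.22 to 8.34 CPM), and points scatter more below 2 CPM.

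MIR22HG and MIR4435-2HG had the most counts of the hosts, and neither was called. MIR22HG (ENSG00000186594.14, chromosome 17, 1711493 to 1717174, minus strand), the host of miR-22 and known as a stress-responsive RNA, was at 39.8, 40.3 and 41 CPM and then at 43.9, 38.7 and 43 CPM. The OTUD1 siRNA libraries lay on both sides of the controls, with a log2 fold change by edgeR of 0.05 (SE 0.06, adjusted p = 0.471). Its neighbour TLCD2, which lies 1055 bases away on the same strand, rose from 7.74 ± 0.971 to 19.5 ± 2.53 CPM (SD, n = 3; edgeR log2 fold change 1.32 with SE 0.11, adjusted p = 2.7e-11). WDR81, which overlaps MIR22HG on the opposite strand without sharing exon bases, was called higher as well (log2 fold change 0.4).

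MIR4435-2HG (ENSG00000172965.15, chromosome 2, 111036776 to 111523376, minus strand) has the longest span of the 20 hosts that met the count rule, at 486601 bases. It was at 31.4, 33.1 and 31.8 CPM in the control libraries and 32.6, 32 and 35.7 CPM in the OTUD1 siRNA libraries, overlapping ranges (edgeR log2 fold change 0.06 with SE 0.065, adjusted p = 0.467). It has a near-identical copy in CYTOR, a long non-coding RNA studied in cancer, and reads may be split between the copies, so both values are uncertain. CYTOR was at 33.3, 30.9 and 32 CPM and at 41.9, 39.8 and 42.1 CPM, and was called higher (edgeR log2 fold change 0.36 with SE 0.061, adjusted p = 7.41e-06). The difference between the 2 copies' fold changes was not tested. MIR4435-2HG also shares 727 exon bases with BCL2L11 on the opposite strand, the gene of the pro-apoptotic protein BIM, which fell (log2 fold change -0.82, edgeR adjusted p = 8.98e-06). With library totals or upper-quartile scaling, MIR22HG (log2 fold changes 0.18 and 0.15) and MIR4435-2HG (0.19 and 0.15) were called higher.

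MIR17HG, MIR222HG and MIR503HG did not pass the test. MIR17HG (ENSG00000215417.12, chromosome 13, 91347820 to 91354579, plus strand) carries the 6 hairpins from MIR17 to MIR92A1 and is a classic target of MYC. Its levels were 1.88, 1.21 and 1.93 CPM in the control libraries and 1.78, 1.79 and 1.72 CPM after OTUD1 siRNA, inside the control range. The log2 fold change by edgeR was 0.08 (SE 0.27, adjusted p = 0.806), and the ratio of summed counts was 1.06 with a 95% exact binomial interval of 0.793 to 1.43, so smaller changes were not detectable at this depth. Such intervals cover counting error only. MIR222HG (ENSG00000270069.1, chromosome X, 45745211 to 45770274, minus strand), source of miR-221 and miR-222, which repress the cell-cycle inhibitor CDKN1B, was at 5.07, 3.8 and 5.02 CPM and at 4.79, 5.26 and 4.56 CPM (log2 fold change 0.08, SE 0.16). These 2 microRNAs share a seed, as the lines show:
hsa-miR-221-3p (chrX:45746180-45746202, minus strand): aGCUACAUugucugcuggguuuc
hsa-miR-222-3p (chrX:45747036-45747056, minus strand): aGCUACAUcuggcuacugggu
MIR503HG (chromosome X, 134543337 to 134546632, minus strand), whose miR-503 is known to act on cell-cycle genes, was at 1.31, 1.6 and 1.17 CPM and at 1.37, 0.943 and 2.44 CPM. OTUD1 siRNA replicate 3 was the highest and replicate 2 the lowest of all 6 libraries, and the log2 fold change of 0.2 (SE 0.32) became -0.23 without replicate 3.

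The hypoxia-induced host MIR210HG (chromosome 11, 565660 to 568457, minus strand) was steady in the control libraries at 1.06, 0.936 and 0.993 CPM and spread from 0.611 to 1.44 CPM after OTUD1 siRNA, at 0.866, 1.44 and 0.611 CPM. Its log2 fold change by edgeR was -0.02 (SE 0.36, adjusted p = 0.959), with a ratio of summed counts of 0.988 (95% interval 0.667 to 1.47). MIR29B2CHG (chromosome 1, 207801518 to 207879096, minus strand), source of miR-29b and miR-29c, known for repressing collagen genes, was at 1.06, 1.76 and 1.46 CPM and at 1.32, 1.04 and 1.61 CPM, overlapping ranges (log2 fold change -0.12, SE 0.3). MIR4697HG, an annotated transcript of unproven type, was at 0.501, 0.551 and 0.817 CPM and at 0.684, 0.546 and 0.278 CPM (log2 fold change -0.28, SE 0.44).

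A further 3 hosts differed by more in size but missed the threshold. MIR600HG (chromosome 9, 123109494 to 123115477, minus strand) overlaps the end of STRBP on the same strand and shares 254 exon bases with it. It was at 1.69, 2.04 and 1.4 CPM in the control libraries and 1.14, 1.24 and 0.778 CPM after OTUD1 siRNA, without overlap (edgeR log2 fold change -0.69 with SE 0.3, adjusted p = 0.0501). STRBP, which encodes an RNA-binding protein of the sperm, fell (log2 fold change -0.37, edgeR adjusted p = 9.63e-06). MIR193BHG (chromosome 16, 14301389 to 14331067, plus strand), the host of miR-193b and miR-365a, was at 2.19, 1.65 and 0.993 CPM and at 0.866, 1.04 and 1.22 CPM. Control replicate 3 lay among the OTUD1 siRNA libraries (edgeR log2 fold change -0.63 with SE 0.32, adjusted p = 0.0944). Without control siRNA replicate 3, MIR600HG (log2 fold change -0.81, edgeR adjusted p = 0.0391) and MIR193BHG (-0.88, adjusted p = 0.0259) were both called lower, as they were with quantile normalization (-0.88 and -0.76 by limma).

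MIR3936HG (chromosome 5, 132311285 to 132369916, minus strand) overlaps 2 carnitine and cation transporter genes, SLC22A4 and SLC22A5, on the opposite strand. It shares 235 exon bases with SLC22A4 and 73 with SLC22A5, and the part of reads in these bases was not tested. The host was at 0.626, 0.496 and 0.35 CPM in the control libraries and 0.821, 0.794 and 1.06 CPM after OTUD1 siRNA. These groups did not overlap, but they rest on 6 to 19 counts per library (edgeR log2 fold change 0.85 with SE 0.4, adjusted p = 0.0714). The ratio of summed counts was 1.81 (95% interval 1.1 to 3.04). MIR3936HG met the count rule only through the OTUD1 siRNA libraries, which favours a rise, and neither the interval nor the test allows for this. SLC22A4 and SLC22A5 were called lower, with log2 fold changes of -0.8 and -0.43. The host was called higher with library totals (log2 fold change 0.98, edgeR adjusted p = 0.0365) and with upper-quartile scaling (0.94, adjusted p = 0.0444).

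The seed GAGGUAG of the let-7 family, a brake on growth genes such as HMGA2, was carried by the microRNAs of 5 hosts, the most for any seed. MIRLET7BHG (ENSG00000197182.14, chromosome 22, 46053869 to 46113928, plus strand) holds let-7a-3 and let-7b near its end. It was at 3.75, 4.13 and 4.32 CPM in the control libraries and 4.79, 3.48 and 3.44 CPM after OTUD1 siRNA, a range that spans that of the controls (edgeR log2 fold change -0.05 with SE 0.18, adjusted p = 0.811). MIR4458HG, described above, rose. The other hosts with this seed, MIR4500HG, MIR100HG and MIR99AHG, had no count in any control library and 19 counts together after OTUD1 siRNA. MIR4500HG had 9 of these, and MIR100HG and MIR99AHG had 5 each. These 3 were too sparse to be tested and were singled out after their values were seen. Their microRNAs with the let-7 seed are as follows.
hsa-miR-4500 (MIR4500HG): uGAGGUAGuaguuucuu
hsa-let-7c-5p (MIR99AHG): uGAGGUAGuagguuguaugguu
In MIR100HG it is let-7a, with the same mature sequence as in MIRLET7BHG.

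At the edge of the count rule stood MIR181A2HG and MIR9-3HG. MIR181A2HG (chromosome 9, 124658467 to 124698631, plus strand), with 10 counts in 3 libraries, was just inside, at 7, 10 and 7 counts in the control libraries and 13, 17 and 5 counts in the OTUD1 siRNA libraries. It was not tested for want of counts, and its ratio of summed counts was 1.24 (95% interval 0.72 to 2.19). It lies within NR6A1, an orphan nuclear receptor gene on the opposite strand that rose (log2 fold change 1.01, edgeR adjusted p = 3.59e-09), without sharing exon bases. MIR9-3HG was just outside, with 7, 8 and 4 counts and then 19, 16 and 5 counts. OTUD1 siRNA replicate 3 had the fewest counts of its group in both of these hosts.

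Of the 42 hosts below the rule, 26 had no count in any library and 16 had 1 to 59 counts over all libraries. The silent ones include MIR31HG, MIR205HG and MIR200CHG, an epithelial host, and the muscle hosts MIR1-1HG and MIR133A1HG. A total of 0 counts in a library allows up to 0.137 to 0.188 CPM, which is what 3 counts are worth there. Hosts with counts in 3 or more libraries were MIR762HG (23 counts over the control and 14 over the OTUD1 siRNA libraries), MIR181A1HG (6 and 10), MIR194-2HG (6 and 6), MIR5689HG (7 and 4), MIR497HG (2 and 4), MIR583HG (0 and 3), MIR4500HG and MIR9-3HG.

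Compared per kilobase of annotated exon, hosts spanned a wide range. MIR22HG was highest, with a mean of 13.8 CPM per kilobase over the 6 libraries, followed by MIR3142HG at 5.47 and MIR4435-2HG at 2.5. MIR34AHG (2.01), MIR155HG (1.77) and MIR222HG (1.71) came next. MIR155HG was above MIR222HG in the control group (2.39 against 1.66) and below it after OTUD1 siRNA (1.16 against 1.75). MIR29B2CHG, with 16425 exon bases, was lowest of the 20 at 0.0838. Annotated exon length counts all isoforms, so per-length levels of hosts with many isoforms are uncertain.

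Genes around the hosts moved in both directions. Leaving out the genes around MIR181A2HG, which was itself not tested, 19 protein-coding neighbours within 100000 bases were tested. Of these, 4 were called higher and 5 lower, and 11 had a fold change of the same sign as their host. Of the 10 overlapping genes tested, with the same host left out, 4 were higher and 4 lower, and 5 had the sign of their host. Over all genes tested, 29.3% were called higher and 31.1% lower. Where host and coding gene were both called, overlapping or neighbouring, they moved the same way in 4 of 5 pairs: MIR137HG with DPYD, MIR34AHG with H6PD, MIR155HG with MRPL39 and MIR3142HG with PTTG1. MIR4453HG and TMEM154 moved apart. These pairs are few, and MIR137HG and DPYD share exon bases. Whether hosts and the genes around them move together more often than unrelated genes was not tested. PRR34, which overlaps MIRLET7BHG on the opposite strand, rose (log2 fold change 1.69, edgeR adjusted p = 0.000198), and WNT7B, a Wnt ligand gene 76740 bases away, fell (-1.44, adjusted p = 5.48e-08).

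**Figure D4:**
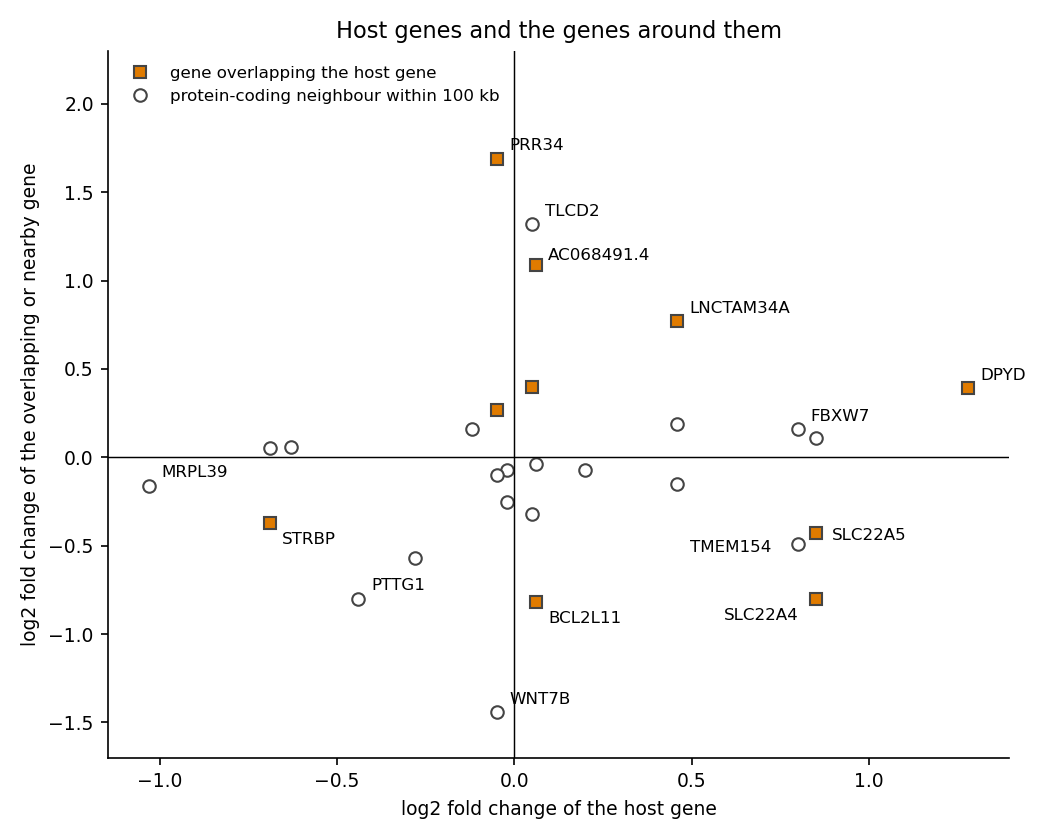
Log2 fold change of each tested gene that overlaps a tested host (squares) or is its nearest protein-coding neighbour within 100 kb (circles) against that of the host. Points lie in all 4 quadrants; DPYD and PTTG1 share their host's direction, and SLC22A4 and TMEM154 do not.

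The table also has rows for the microRNA hairpins themselves. Of 93 hairpin rows inside a host on the same strand, 81 had no count, and none was tested. Counts in a long-RNA library on a row of this size need not reflect the mature microRNA. MIR221, within MIR222HG, had 5, 4 and 7 counts in the control libraries and 8, 4 and 2 counts in the OTUD1 siRNA libraries, overlapping values. MIR3936, within MIR3936HG, had 1, 1 and 0 counts and then 4, 7 and 4 counts. Its summed counts of 2 and 15 give a ratio of 6.4 with a 95% interval of 1.49 to 57.7. Hairpin rows were named where they had at least 10 counts in all, which this row reached only through the OTUD1 siRNA libraries. That choice favours a high ratio, and the interval does not allow for it.

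Genes that process microRNAs or act with them were more often called lower than higher. Of 22 pathway genes tested, 3 were called higher and 15 lower (13.6% and 68.2%, beside 29.3% and 31.1% of all genes tested). Their median log2 fold change was -0.2 beside 0.01 over all genes. With library totals or quantile normalization 9 were lower and 4 higher. A mean of 5 CPM or more was reached by 21 of the pathway genes. Of all genes tested in that range, 30.2% were higher and 39.0% lower, with a median of -0.04. The nuclear cutting complex moved apart: DROSHA rose from 28.8 ± 1.66 to 37.1 ± 1.57 CPM (SD, n = 3; log2 fold change 0.36, edgeR adjusted p = 2.17e-05), while its partner DGCR8 fell from 38.7 ± 1.21 to 21.9 ± 1.67 CPM (-0.82, adjusted p = 2.51e-11). SRRT, which links capped transcripts to processing, fell 1.66-fold. XPO5 and DICER1 were called lower, at 1.15-fold and 1.12-fold. The Argonaute genes did not move together. AGO2 and AGO4 rose 1.13-fold and 1.22-fold, AGO3 fell 1.16-fold (edgeR adjusted p = 0.0491) and AGO1 was not called (log2 fold change -0.03). The scaffold TNRC6A fell 1.79-fold and its relative TNRC6B 1.9-fold, while TNRC6C was not called (log2 fold change 0.37). TSN, the gene of the nucleic acid-binding protein translin, fell 1.91-fold.

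Other genes that carry microRNAs without saying so in their name moved both ways. Of 37 tested, 14 were called higher and 13 lower (37.8% and 35.1%, beside 29.3% and 31.1% of all genes tested), with a median of 0.07. A mean of 5 CPM or more was reached by 35 of these genes. In that range 30.2% of all genes tested were higher and 39.0% lower, with a median of -0.04. With library totals 21 were higher and 12 lower, and with upper-quartile scaling or quantile normalization 19 were higher and 13 lower. LPP, host of miR-28, rose 2.17-fold, COPZ2 (miR-152) 2.15-fold, SKA2 (miR-301a and miR-454) 1.57-fold and GPC1 (miR-149) 1.56-fold. MCM7, whose intron holds the miR-106b cluster, a relative of the cluster in MIR17HG, fell 1.75-fold from 358 ± 14.6 to 204 ± 4.91 CPM (SD, n = 3; edgeR adjusted p = 6.38e-18). SMC4 (miR-15b and miR-16-2) fell 1.87-fold, R3HDM1 (miR-128-1) 1.93-fold and DNM2, with miR-199a-1 inside its span, 1.36-fold. Strand was not checked for this list, so the RNA of a listed gene need not be the source of the microRNA.

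Transcription factor genes described as regulators of microRNA hosts were lower in 15 of 18 tested and higher in 2 (83.3% and 11.1%, beside 31.1% and 29.3% of all genes tested), with a median of -0.34. With library totals 10 were lower, with quantile normalization 11 and with upper-quartile scaling 12. A mean of 5 CPM or more was reached by 17 of these genes, a range in which 39.0% of all genes tested were lower and 30.2% higher. MYC fell 1.38-fold, from 216 ± 2.01 to 157 ± 2.49 CPM, and the NF-kB subunit RELA 1.65-fold, from 115 ± 2.86 to 70.1 ± 3.64 CPM (SD, n = 3). FOSL1, of the AP-1 family, fell 1.96-fold and the Hippo effector YAP1 1.37-fold. STAT3 rose 1.34-fold and the MYC partner MAX 1.2-fold. These lists and the host genes were compared by their counts alone, and no relation between them was tested.

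**Figure D5:**
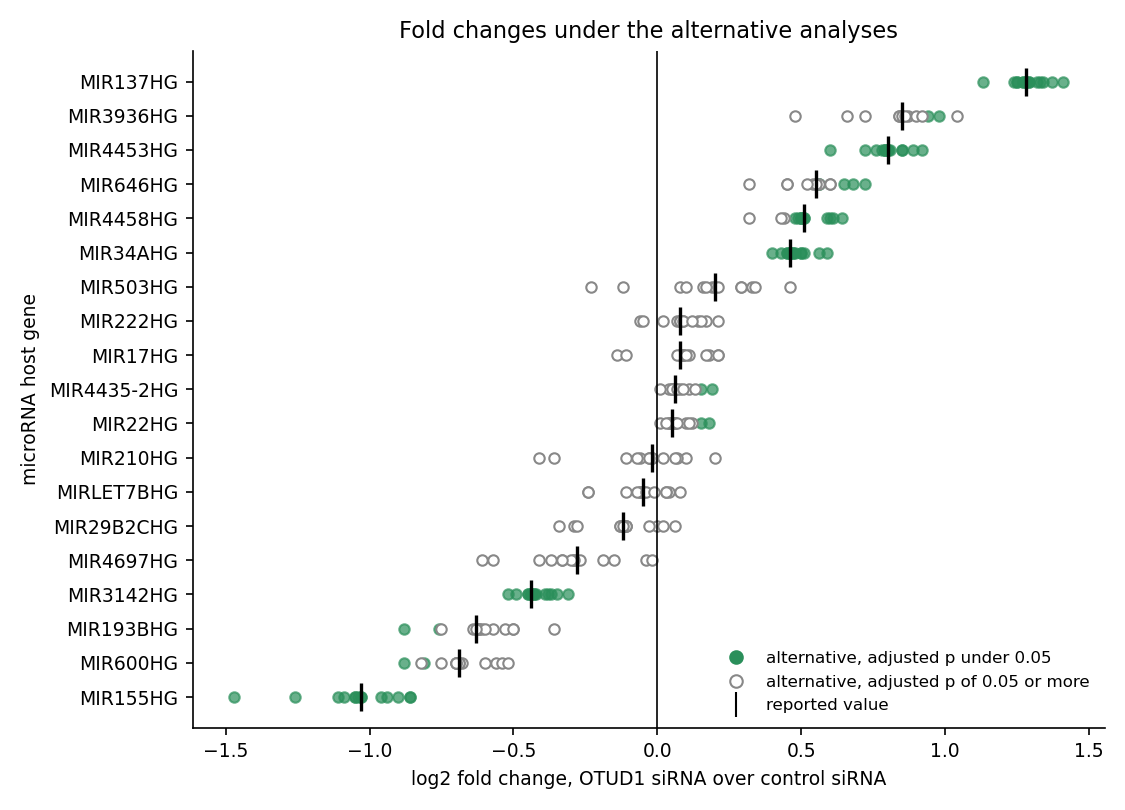
Log2 fold change of each tested host gene under each alternative analysis; filled points passed an adjusted p of 0.05, open points did not, and the bar is the reported value. MIR137HG, MIR4453HG, MIR34AHG, MIR3142HG and MIR155HG passed in every alternative that tested them, and MIR4458HG and MIR646HG did not.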

How the data were processed

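The deposited table holds whole-number counts per gene symbol in 6 libraries, whose totals differ, although the authors' file is named for FPKM; they were treated as raw counts. Libraries were made with a strand-keeping kit, per the labels' protocols, and the build is hg38, per the submitters' processing notes. For aligner, counter and strand setting nothing is given in the sources used here, so counts of overlapping genes on opposite strands are uncertain.

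Genes were filtered with filterByExpr (minimum count 10, minimum total 15), scaled by TMM and tested two-sided with edgeR 4.0.16 (glmQLFit, glmQLFTest; R 4.3.3) over 15244 genes, with Benjamini-Hochberg adjustment. The SE is the size of the log2 fold change over the square root of F. Ratios of summed counts carry 95% exact binomial intervals (scipy 1.17.1). No pair of libraries looked like copies of 1 library: within a group the chi-square averaged 2.06 to 3.78 per gene. The scripts were tested on simulated data. Positions come from GENCODE 29, matched by symbol for 62 of 62 hosts, and mature sequences from RefSeq, found inside 55.

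Hosts with 10 counts in 3 libraries were named. From each other list, up to 4 called genes per direction with the smallest adjusted p were named. Beside these, XPO5, DICER1 and the remaining Argonaute and TNRC6 genes were named from the pathway list. Members and lists were chosen with earlier results of these data known. SD is the standard deviation over the 3 libraries of a group. Alternatives used DESeq2 1.42.0 and limma 3.58.1, other filters and scalings, a replicate block and each library left out.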

Additional observations from a re-analysis of the deposited data

How the results depend on the processing

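Of the 7 called host genes, 5 kept call and direction in every alternative that tested them, and with RLE scaling, DESeq2, limma-voom or no filter 4 to 5 were called higher. The count of higher calls was 8 with library totals and 8 with upper-quartile scaling, 3 with quantile normalization, 2 with a minimum mean of 5 CPM (5 hosts tested) and 2 among hosts without an opposite-strand overlap (12 tested). Leaving out 1 library gave 3 to 4 higher and 2 to 4 lower, with 3 higher without OTUD1 siRNA replicate 1 and 4 lower without control siRNA replicate 3. Quantile normalization gave 4 lower calls, and the 5 CPM minimum gave 1. Pathway genes called lower were 9 with library totals and 9 with quantile normalization. Library totals raised the median log2 fold change of all genes by 0.129. Where not built into the alternative (fewer hosts tested, that shift), the cause was not tested.

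Of the 12 tested hosts that were not called, 6 turned sign in at least 1 alternative. With quantile normalization the log2 fold change was -0.06 for MIR222HG, -0.14 for MIR17HG and -0.12 for MIR503HG. With library totals it was 0.08 for MIRLET7BHG, 0 for MIR29B2CHG (just above zero) and 0.1 for MIR210HG, and with upper-quartile scaling 0.04 for MIRLET7BHG and 0.07 for MIR210HG. Leaving out 1 library gave -0.05 to 0.15 for MIR222HG, -0.11 to 0.21 for MIR17HG, -0.23 to 0.46 for MIR503HG, -0.24 to 0.03 for MIRLET7BHG, -0.29 to 0.06 for MIR29B2CHG and -0.41 to 0.2 for MIR210HG.

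The labels number the libraries 1 to 3 in both groups, but deviations of same-numbered libraries correlated at 0.0283, 0.132 and -0.00249 over 11037 genes, and not every library correlated best with its own number. With the replicate number as a block, 5 host genes were higher and 2 lower, as without it.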

Other observations

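Hairpin rows with counts all lay in introns of their host. Of 58 hairpin rows inside a host and within its introns, 12 had counts, 72 in all, while the 30 rows within a host's exons and the 5 across an exon edge had none. Among the 20 hosts described, the 21 exonic hairpin rows include all 6 of MIR17HG, and 8 of the 14 intronic rows had counts. This division was noticed in the data, and its cause was not tested.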
